A study of Pardosa pseudoannulata with 6 samples.

Results

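The transcripts described here code for the enzymes that build, lengthen and desaturate fatty acids in the wolf spider Pardosa pseudoannulata, a hunter of rice fields. Members were taken from the annotation of the deposited table: rows with the elongase domain (PF01151), the desaturase domain (PF00487), the reductase domain of fatty acyl-CoA reductases (PF07993) or the ligase domain of acyl-CoA synthetases (PF00501), and rows whose best protein hit was named fatty acid synthase or acyl-CoA desaturase. Of 75542 genes in the table, 107 rows matched. The 20 whose best hit came from Drosophila were dropped, and 4 others, all fatty acid synthase, lay under the level filter of 0.5 FPKM in at least 3 of 6 libraries. The 83 kept members were 37 of 41 fatty acid synthase transcripts, 30 of 30 with an elongase domain, 5 of 5 desaturases by name and 11 of 11 that carried a desaturase domain call under another name. The reductase and ligase domain numbers matched 0 rows, so reductases and ligases were looked up by name after the table had been opened and are given apart from the members.

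All 6 libraries came from cadmium-treated spiders microinjected with double-stranded RNA to set off RNA interference. The labels limit the model: they call the material an individual without naming an organ, age or sex, give no cadmium dose or time, and do not say which actin the dsRNA matched. The dsNC group of 3 libraries received the negative control dsRNA, and the dsFactin group of 3 received dsRNA against the F-actin gene. Both groups carry the cadmium treatment, so neither shows spiders without cadmium. Nothing in the labels states that each replicate was a separate animal. The p-values therefore rest on the spread between these libraries, which may be technical.

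Fatty acid synthase joins acetyl and malonyl units into palmitate. Elongases, the ELOVL proteins of vertebrates, then catalyse the condensation that opens each cycle of lengthening, and a 3-oxoacyl-CoA reductase, a dehydratase and an enoyl-CoA reductase complete it. Acyl-CoA desaturases place a double bond in the chain with electrons from cytochrome b5, acyl-CoA ligases activate free fatty acids, and fatty acyl-CoA reductases make fatty alcohols. The products go into membranes, stored fat and, in arthropods, the lipids of the cuticle.

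The values are FPKM, fragments per kilobase of transcript scaled to library depth, and 53182 genes passed the level filter and were tested. Differences are dsFactin minus dsNC on the log2(FPKM + 1) scale with their SE, which understates changes of genes near or below 1 FPKM, and adjusted p-values come from limma with Benjamini-Hochberg adjustment over all tested genes. Depth, recovered from the spacing of low FPKM values, was 15.88 to 18.04 M fragments in the dsNC libraries and 16.04 to 17.84 M (M, the prefix mega) in the dsFactin libraries. Across all tested genes 41 were called higher and 223 lower at an adjusted p under 0.05, and the median log2 difference was -0.27. The actin transcript with the best hit Actin-87E, Cluster-8110.35523, stood at 880, 1119 and 1057 FPKM across dsNC replicates 1 to 3 against 338, 397 and 558 FPKM in dsFactin replicates 1 to 3, 2.36-fold lower on the means, with the groups apart and an adjusted p of 0.0675 from limma. The dsFactin replicate 2 library stood apart from the other dsFactin libraries: its log2 values correlated with theirs across genes at 0.856 and 0.832, against 0.916 between replicates 1 and 3 and 0.905 to 0.910 among dsNC libraries. Its highest correlation with any library was 0.880, with dsNC replicate 3. Genes with a Drosophila best hit summed to 747 to 13923 FPKM in the dsNC libraries, highest in replicate 3, and to 226 to 450 FPKM in the dsFactin libraries.

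The summed levels of markers for muscle, hemocyanin, yolk and the digestive tract did not overlap between the groups, and those for cuticle, silk and nerve did. The 75 muscle markers summed to 8791 to 10677 FPKM across dsNC against 4364 to 5507 FPKM across dsFactin. In every dsFactin library 45 of them were below all dsNC libraries (60%, against 21.5% of all tested genes). The 70 digestive markers summed to 9352 to 12080 FPKM across dsNC against 15259 to 16874 FPKM across dsFactin. Above in every dsFactin library were 23 of them (32.9%, against 5.98% of all tested genes), and below 12 (17.1%, against 21.5%). Their log2 differences were positive for 32 and negative for 38, with a median of -0.14. The 37 yolk markers summed to 9960 to 14173 FPKM across dsNC against 14565 to 25859 FPKM across dsFactin, and the 45 hemocyanin markers to 71800 to 88730 and 43749 to 53996 FPKM. The 181 cuticle markers summed to 29572 to 34936 and 8609 to 29596 FPKM, the 38 silk markers to 17470 to 21148 and 18091 to 25882 FPKM, and the 42 nerve markers to 322 to 423 and 301 to 340 FPKM. The cuticle sums overlapped through dsFactin replicate 3 alone. Of the cuticle markers 20 were called lower and 0 higher, where 0.419% of all tested genes were called lower. Their median log2 difference was -1.64, and 70 lay below every dsNC library (38.7%, against 21.5% of all tested genes). Before the level filter, 1 of 83 muscle markers and 0 of the markers on the other lists were at 0 in all 6 libraries. The part of these tissues in the results that follow was not tested, and in bulk libraries fewer cells of a type and less RNA per cell cannot be told apart.

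Among the 83 members, 2 passed the test and both were lower in dsFactin, and 0 were called higher. Over all tested genes 0.419% were called lower and 0.0771% higher. At an unadjusted p under 0.05, 17 members were lower and 10 higher, 27 of 83, against 19.3% of all tested genes. In 20 members every dsFactin value was under the lowest dsNC value, and in 11 it was over the highest one, where all tested genes gave 21.5% below and 5.98% above. The members' median log2 difference was -0.32, near the median of -0.27 over all tested genes. By family the medians were -0.52 for the synthase transcripts, -0.57 for the elongases, -0.17 for the desaturases and -0.24 for the transcripts with a desaturase domain call and another name. Passing the level filter through the dsNC libraries alone were 3 members, Cluster-8110.25053, Cluster-8110.29466 and Cluster-8110.50579, which therefore had to be lower in dsFactin, and 0 passed through the dsFactin libraries alone. The spread within dsFactin was the wider one for 55 of the 83 members (66.3%) and for 52.3% of all tested genes.

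**Figure D1:**
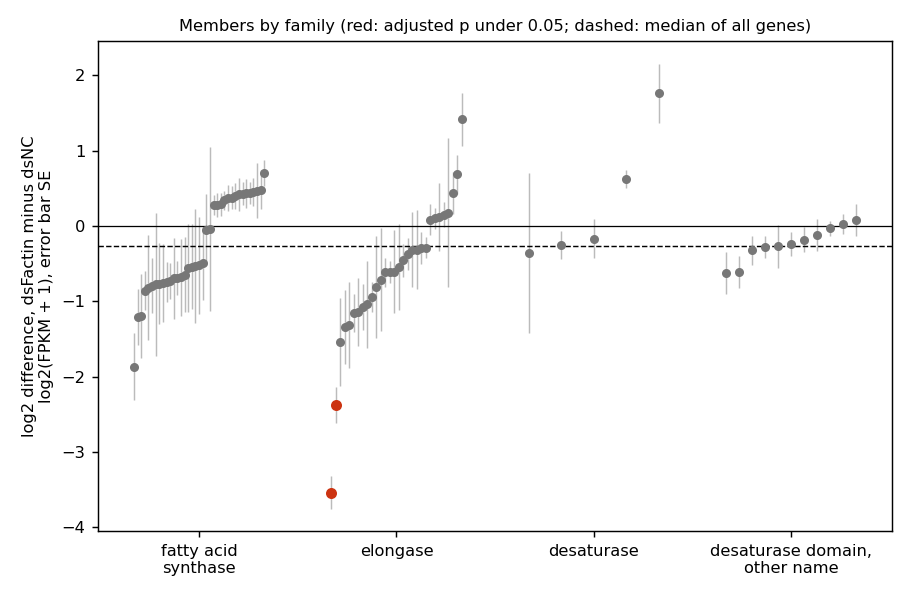
Each point is 1 member, sorted within its family, with its log2 difference (dsFactin minus dsNC, log2(FPKM + 1) scale) and SE from 3 libraries a group. The 2 red points, both elongases at -3.54 and -2.37, have an adjusted p under 0.05, and the dashed line is the median of all tested genes, -0.27. Synthase transcripts fall on both sides of 0 with differences between -1.87 and 0.71.

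The elongases held the 2 called members. Of the 30, 27 were named as elongases by a best hit, and 13 had an orthology group, which was ELOVL4 for 5, ELOVL7 for 4, ELOVL1 for 3 and ELOVL6 for 1. Cluster-8110.25053, whose best hit is an elongase 7-like protein of the spider Argiope bruennichi and whose orthology group is ELOVL7, read 10.4, 14.3 and 9.86 FPKM across dsNC replicates 1 to 3 against 0.17, 0.02 and 0 FPKM in dsFactin replicates 1 to 3. It was detected well in every dsNC library and was close to absent from every dsFactin library, where about 9, 1 and 0 fragments were recovered against 469, 664 and 510 in dsNC. The means were 11.5 ± 2.40 and 0.0633 ± 0.0929 FPKM (SD, n = 3), and the transcript fell by 3.54 ± 0.22 on the log2 scale with an adjusted p of 0.00386 in limma. This transcript passed the level filter through the dsNC libraries alone and so was bound to be lower in dsFactin. With no level filter its adjusted p was 0.00453. With a filter on the mean over both groups, set at 5 FPKM, it was 0.0218. That filter too was passed through the dsNC values, since its mean over all 6 libraries was 5.78 FPKM, so it does not remove this limit. Cluster-8110.33497 carries the same best hit and read 19.5, 16.8 and 17.01 FPKM across dsNC against 1.95, 2.16 and 4.07 FPKM across dsFactin. Its groups were far apart, with means of 17.8 ± 1.47 and 2.73 ± 1.17 FPKM (SD, n = 3), 6.52-fold lower in dsFactin. It fell by 2.37 ± 0.24 on the log2 scale with an adjusted p of 0.0296 in limma. That call was lost without any 1 of the dsNC libraries and without dsFactin replicate 1, with adjusted p-values of up to 0.205 over the alternatives run and the log2 difference between -2.78 and -2.17.

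Another transcript with that best hit, Cluster-8110.33686, read 22.0, 17.3 and 11.2 FPKM across dsNC against 12.6, 12.1 and 36.2 FPKM across dsFactin. Its groups overlapped, with a log2 difference of 0.12 ± 0.46 and an adjusted p of 0.902 in limma, so the low dsFactin values of the other two were not seen in it. Whether the 3 are separate genes or pieces and isoforms of fewer genes was not tested, and the sources used here do not say how shared reads were assigned.

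Below every dsNC library in all 3 dsFactin libraries were 11 of the 30 elongases (36.7%), the 2 called ones included, against 21.5% of all tested genes. Of these 11, Cluster-8110.25053 and Cluster-8110.50579 were bound to be lower by the level filter. A single one lay above in all of them, Cluster-8110.42929, which was singled out after its values were seen and is described with the reductases. Cluster-8110.30743, in the ELOVL1 group of enzymes for very long saturated chains, read 17.7, 17.7 and 13.6 FPKM across dsNC against 6.20, 8.19 and 9.80 FPKM across dsFactin. The groups did not overlap, and the log2 difference of -0.95 ± 0.20 had an adjusted p of 0.0901 in limma. Cluster-8110.26860, an elongase by its domain, read 2.32, 3.93 and 4.03 FPKM across dsNC against 0.74, 1.23 and 0.93 FPKM across dsFactin. Its log2 difference was -1.15 ± 0.25 with an adjusted p of 0.0946. A second transcript of the ELOVL1 group, Cluster-8110.30998, read 50.3, 41.9 and 35.6 FPKM across dsNC against 6.64, 21.4 and 28.2 FPKM across dsFactin. Its dsFactin values lay below all dsNC values but ranged widely among themselves, and the log2 difference of -1.34 ± 0.49 had an adjusted p of 0.216. The remaining ELOVL1 transcript, Cluster-8110.28824, shares its best hit with Cluster-8110.30743 and went the other way. It read 15.05, 16.96 and 18.85 FPKM across dsNC against 29.99, 14.74 and 27.96 FPKM across dsFactin. Its groups overlapped, with a log2 difference of 0.43 ± 0.28 and an adjusted p of 0.442 in limma.

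Of the other elongases below in every dsFactin library, Cluster-8110.40504 read 13.9, 20.2 and 17.8 FPKM across dsNC against 4.74, 8.04 and 11.4 FPKM across dsFactin, a log2 difference of -1.07 ± 0.31 with an adjusted p of 0.143 in limma. Cluster-8110.37398 read 12.4, 12.9 and 10.5 FPKM across dsNC against 8.03, 7.37 and 7 FPKM across dsFactin, with -0.61 ± 0.15 and an adjusted p of 0.109. Its spread within each group was small beside the gap between the groups. Cluster-8110.44831, Cluster-8110.35751, Cluster-8110.21070 and Cluster-8110.50579 had log2 differences of -0.62, -0.29, -0.46 and -0.37 and adjusted p-values of 0.170, 0.331, 0.324 and 0.403. Cluster-8110.44831 had no best hit, and that of Cluster-8110.50579 was the histone-lysine N-methyltransferase SETMAR, so both count as elongases by the domain alone. Over all genes, 47167 were above 0 in dsFactin replicate 3, against 54264 to 61503 in the other libraries. Of the 30 elongases 5 were listed at 0 in dsFactin replicate 3 and 2 in replicate 1, among them Cluster-8110.24147, which read 1.5, 0.33 and 4.30 FPKM across dsNC.

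The most abundant elongase, Cluster-8110.33243, read 87.6, 71.9 and 68.6 FPKM across dsNC against 86.9, 121 and 174 FPKM across dsFactin. Replicate 1 of dsFactin lay within the dsNC values, and the log2 difference of 0.69 ± 0.26 had an adjusted p of 0.226 in limma. Cluster-8110.34625, of the ELOVL6 group that lengthens palmitate in vertebrates, read 41.1, 40.2 and 48.5 FPKM across dsNC against 40.2, 51.5 and 47.9 FPKM across dsFactin, with a log2 difference of 0.10 ± 0.14 and an adjusted p of 0.723. Its groups covered nearly the same range. Summed over the 30 elongases the libraries held 429, 413 and 382 FPKM across dsNC against 284, 437 and 487 FPKM across dsFactin, and the group means were 408 ± 23.7 and 403 ± 105 FPKM (SD, n = 3). The sums overlapped. Of the 30, 22 had a negative log2 difference (73.3%), near the 71.6% of all tested genes. That count was 22 with median-ratio scaling too and 19 with quantile scaling. The elongase median was -0.57 as reported, against -0.27 for all tested genes. It was -0.40 against -0.16 with median-ratio scaling and -0.32 against 0.01 with quantile scaling.

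**Figure D2:**
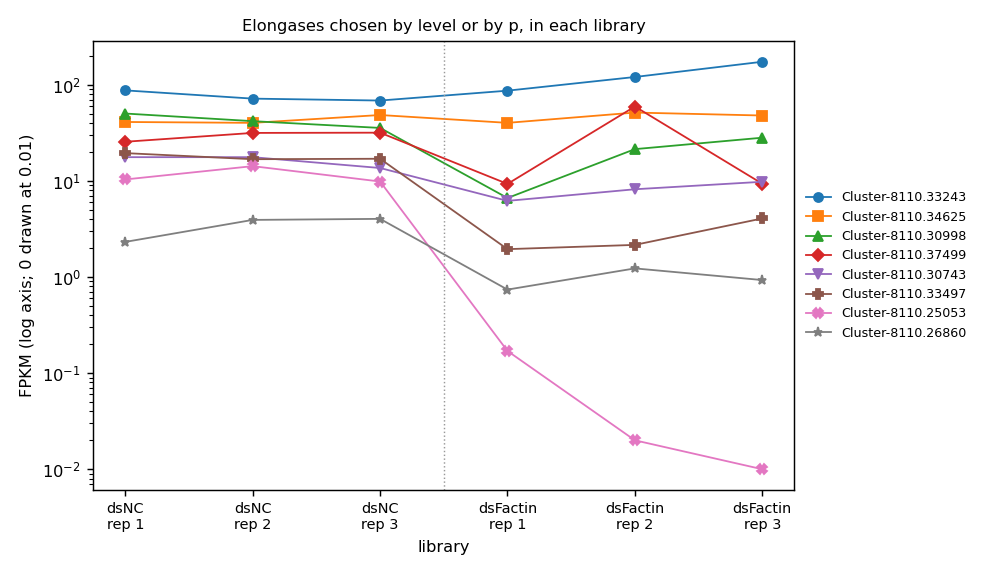
FPKM of 8 elongases (log axis, 0 drawn at 0.01) in each library, chosen as the 4 of highest mean and the 4 of smallest p, with lines that only link the values of 1 transcript. Cluster-8110.25053 drops from 9.86 to 14.3 FPKM across dsNC to 0.17 FPKM or less in dsFactin, and Cluster-8110.37499 peaks at 59.5 FPKM in dsFactin replicate 2.

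A few members followed the library that stood apart. Cluster-8110.37499, an elongase, read 25.6, 31.6 and 31.8 FPKM across dsNC against 9.31, 59.5 and 9.35 FPKM across dsFactin. Replicates 1 and 3 of dsFactin were below every dsNC library and replicate 2 above, so the log2 difference was -0.71 ± 0.69 with an adjusted p of 0.598 in limma. Without dsFactin replicate 2 the difference was -1.56. No p is given for it, since the library left out was the one that disagreed. Over all tested genes, leaving out that library raised the count of called genes from 264 to 1297. The elongase Cluster-8110.40771 read 5.38, 4.52 and 6.72 FPKM across dsNC against 2.05, 39.3 and 2.20 FPKM across dsFactin. Both show 1 dsFactin library high and the other two low. This order, replicate 2 highest of all libraries and dsFactin replicates 1 and 3 below every dsNC library, was met by 6 of 83 members (7.23%) and by 5.52% of all tested genes. The 6 were 4 elongases, 1 desaturase and 1 synthase transcript.

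The desaturases were the family with the highest level in a single transcript and stood higher in dsFactin as a sum. The summed level of the 5 was 637, 617 and 682 FPKM across dsNC against 986, 1189 and 1387 FPKM across dsFactin, with every dsFactin library above every dsNC library. The means were 645 ± 33.2 and 1187 ± 201 FPKM (SD, n = 3), a ratio of 1.84, and 72.5% of the summed level came from 1 transcript. No single desaturase passed the test: at an unadjusted p under 0.05, 2 of the 5 were higher and 0 lower, where 4.53% of all tested genes were higher and 14.8% lower. No p is given for the sum.

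Cluster-8110.36400, the dominant desaturase, has as best hit a stearoyl-CoA desaturase 5, an enzyme that turns saturated into monounsaturated fatty acids. It read 522, 489 and 555 FPKM across dsNC against 757, 867 and 796 FPKM across dsFactin. The groups did not overlap and each was tight, at 522 ± 32.9 and 807 ± 55.8 FPKM (SD, n = 3), with a log2 difference of 0.63 ± 0.12 and an adjusted p of 0.0784 in limma. It passed at 0.0372 when only genes with a mean of at least 5 FPKM were tested and at 0.0181 with voom on recovered fragments, and in 2 of 17 alternatives in all. Cluster-8110.34642, a Delta-9 desaturase-like transcript, read 84.6, 97.5 and 79.6 FPKM across dsNC against 205, 221 and 575 FPKM across dsFactin. The groups did not overlap, and dsFactin replicate 3 was far above replicates 1 and 2. The ratio of the means was 3.83, the log2 difference 1.76 ± 0.39 and the adjusted p 0.0972 in limma, and the transcript passed in 0 of 17 alternatives.

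The other desaturases were lower in level. Cluster-8110.33579, also nearest a stearoyl-CoA desaturase 5, read 14.9, 13.6 and 28.4 FPKM across dsNC against 5.65, 87.7 and 4.43 FPKM across dsFactin. It shared the order seen above with dsFactin replicate 2 highest, and among the dsNC libraries replicate 3 was highest at 28.4 FPKM. Its log2 difference was -0.36 ± 1.06 with an adjusted p of 0.870 in limma, and -1.66 without dsFactin replicate 2. Cluster-8110.32704, close to the sphingolipid delta(4)-desaturase DES1, which makes ceramide from dihydroceramide in vertebrates, read 15.4, 15.2 and 18.0 FPKM across dsNC against 16.7, 12.8 and 11.1 FPKM across dsFactin. Its groups overlapped, with a log2 difference of -0.25 ± 0.18 and an adjusted p of 0.490. Cluster-8110.1260, a Delta(11) desaturase by its best hit, stayed at 1.15 FPKM or less in all 6 libraries, too low for a small difference to be detectable at this depth.

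**Figure D3:**
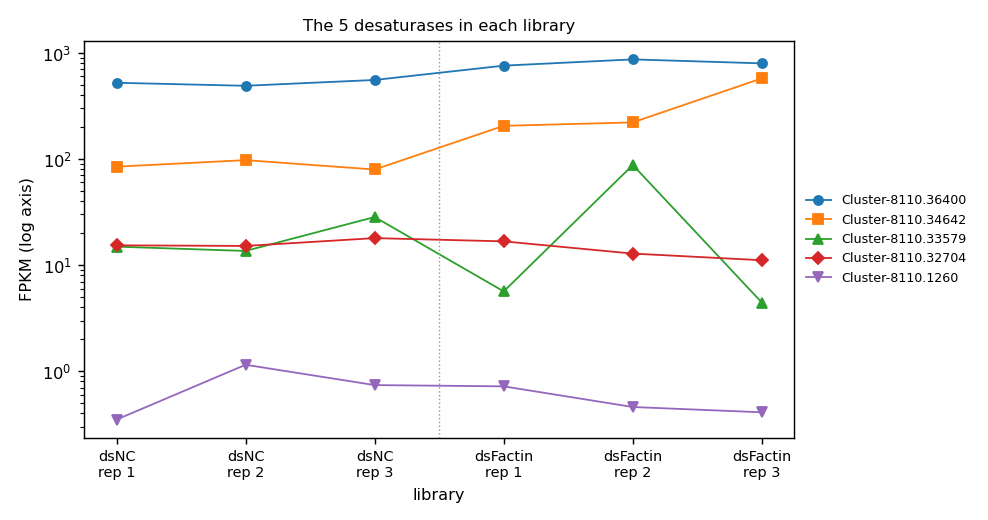
FPKM of the 5 desaturases (log axis) in each library, with lines that only link the values of 1 transcript. Cluster-8110.36400 and Cluster-8110.34642 lie higher in every dsFactin library than in any dsNC library, whereas Cluster-8110.33579 peaks at 87.7 FPKM in dsFactin replicate 2.

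The 37 fatty acid synthase transcripts all carried the orthology name FASN and matched 22 different best hits, but 12 were shorter than 450 bases, with lengths from 305 to 4090 bases. They may be pieces of fewer genes, which was not tested, so they are not 37 independent measurements. None passed the test, and at an unadjusted p under 0.05, 6 were higher (16.2%, against 4.53% of all tested genes) and 6 lower (16.2%, against 14.8%). Their summed level was 1297, 1416 and 1292 FPKM across dsNC against 1606, 1302 and 2038 FPKM across dsFactin, with dsFactin replicate 2 inside the dsNC range. The means were 1335 ± 70.1 and 1648 ± 370 FPKM (SD, n = 3). Replicate 3 of dsFactin was the highest of all libraries for 22 of the 37 (59.5%), and for 13.1% of all tested genes.

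The synthase transcripts divided by level. A gap in mean level between 27.7 and 46.9 FPKM was seen after the values were known, and a boundary of 40 FPKM was placed in it, so the counts that follow are a description. All 14 transcripts above it had a positive log2 difference, from 0.28 to 0.71 with a median of 0.42, where 28.4% of all tested genes were positive. The levels differ, since these 14 had means of 46.9 to 146 FPKM and all tested genes a median level of 1.48 FPKM. Over genes with a mean of at least 5 FPKM the median log2 difference was -0.12. The 14 stayed positive with median-ratio, equal-sum and quantile scaling. The median level of these 14 was 62.4, 72.9 and 67.9 FPKM in the dsNC libraries and 92.1, 69.3 and 109 FPKM in the dsFactin libraries. The median of replicate 2 lay within the dsNC medians, but in 7 of the 14 transcripts all 3 dsFactin libraries were above every dsNC library. Over all tested genes 5.98% were above in this way. Of the 23 below the boundary, 22 had a negative difference, where 71.6% of all tested genes were negative. Their median was -0.69 over the 23, and 20 were negative with median-ratio or quantile scaling.

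Cluster-8110.38064, the synthase transcript of highest level, read 121, 128 and 122 FPKM across dsNC against 165, 140 and 200.01 FPKM across dsFactin. All dsFactin libraries lay above all dsNC libraries, with a log2 difference of 0.43 ± 0.15 and an adjusted p of 0.204 in limma. Cluster-8110.25470 read 82.8, 83.8 and 74.5 FPKM across dsNC against 159, 105 and 137 FPKM across dsFactin, again without overlap, and its log2 difference of 0.71 ± 0.17 had an adjusted p of 0.109, or 0.0448 without dsFactin replicate 2. That was the 1 of 16 alternatives in which it passed. The abundant Cluster-8110.33559, Cluster-8110.43092 and Cluster-8110.37530 overlapped between groups, with log2 differences of 0.37, 0.28 and 0.29 and adjusted p-values of 0.302, 0.381 and 0.358. Cluster-8110.43092 and Cluster-8110.25470 are 317 and 376 bases long. Fragments were recovered only from 450 bases up, so the levels of both were not checked in that way and are less certain.

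At the low end, Cluster-8110.18223 read 5.34, 2.85 and 4.19 FPKM across dsNC against 0, 1.61 and 0 FPKM across dsFactin. It was listed at 0 in dsFactin replicates 1 and 3, and its log2 difference of -1.87 ± 0.44 had an adjusted p of 0.106 in limma, or 0.0346 without dsFactin replicate 2. That was the 1 of 16 alternatives in which it passed. Cluster-8110.28705 and Cluster-8110.17215, at 3.69 FPKM or less in every library, were also below every dsNC library in dsFactin, with log2 differences of -1.21 ± 0.37 and -0.86 ± 0.26 and adjusted p-values of 0.164 and 0.163. The 7 transcripts that share a best hit with a fatty acid synthase-like protein of Uloborus diversus had median levels of 18.6, 17.1 and 14.4 FPKM across dsNC against 4.82, 5.49 and 24.8 FPKM across dsFactin. By these medians dsFactin replicates 1 and 2 were below and replicate 3 above the dsNC libraries, while in Cluster-8110.12080 and Cluster-8110.28706, the lowest of the 7, all 3 dsFactin libraries were below every dsNC library. A similar order was seen in transcripts of middle level with other best hits. Cluster-8110.38075 read 25.4, 27.7 and 16.4 FPKM across dsNC against 9.01, 8.98 and 40.9 FPKM across dsFactin, and Cluster-8110.38606 read 30.0, 29.0 and 18.3 FPKM across dsNC against 11.7, 8.16 and 51.1 FPKM across dsFactin. Their log2 differences were -0.55 and -0.52 with adjusted p-values of 0.630 and 0.679, since replicate 3 lay on the other side of the dsNC libraries from replicates 1 and 2. The single transcript under the boundary with a positive difference, Cluster-8110.27738, read 19.9, 24.3 and 16.1 FPKM across dsNC against 25.0, 27.3 and 27.0 FPKM across dsFactin, with 0.40 ± 0.17 and an adjusted p of 0.274. These transcripts were singled out after their values were seen.

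At the edge of the level filter, the kept synthase transcript of lowest mean, Cluster-8110.29466, read 1.62, 0.98 and 0.94 FPKM across dsNC against 0.12, 0.44 and 0.36 FPKM across dsFactin. Of the 4 that were not kept, Cluster-8110.25473 read 2.07, 0.35 and 1.23 FPKM across dsNC and was listed at 0 in all 3 dsFactin libraries, as were 2 of the other 3. Those 4 were highest in a dsNC library each, and they were not tested.

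**Figure D4:**
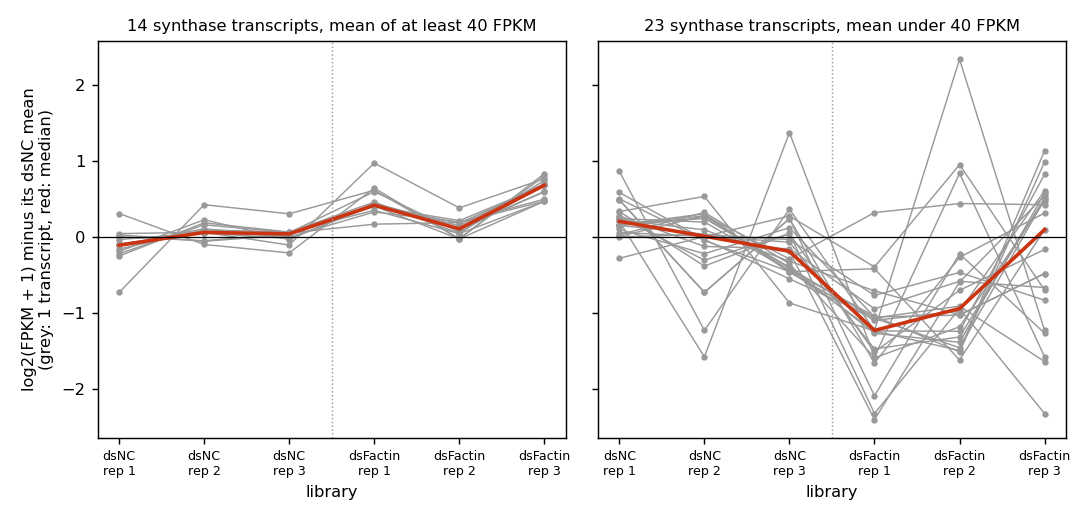
Log2(FPKM + 1) of each synthase transcript minus its dsNC mean, for the 14 transcripts whose mean reached 40 FPKM and the 23 under it, with lines that only link the values of 1 transcript (grey) or the median (red). In the left panel dsFactin replicates 1 and 3 lie above the dsNC libraries, with median levels of 92.1 and 109 FPKM, and replicate 2 lies near them at 69.3 FPKM. In the right panel the grey lines spread widely in dsFactin.

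The 11 transcripts with a desaturase domain call and another name carry best hits outside fatty acid synthesis or to a hypothetical protein. Their best hits included tetraspanin-7, a proton-coupled amino acid transporter, ataxin-2, TAPT1, a zinc finger protein and a glutamate-gated chloride channel, and 0 of the 11 were named as a desaturase. Of the 11, 0 passed the test, 3 lay below every dsNC library (27.3%, against 21.5% of all tested genes) and 0 above. Their summed level was 192 ± 10.8 FPKM across dsNC against 179 ± 3.84 FPKM across dsFactin (SD, n = 3). The tetraspanin-7 transcript Cluster-8110.33872 held most of it and read 119, 118 and 109 FPKM across dsNC against 110, 111 and 117 FPKM across dsFactin, with a log2 difference of -0.03 ± 0.10 and an adjusted p of 0.885 in limma. The zinc finger transcript Cluster-8110.32148 was under every dsNC library in all 3 dsFactin libraries, with a log2 difference of -0.61 ± 0.21 and an adjusted p of 0.199.

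Acyl-CoA ligases looked up by name, 18 in all, gave 1 called transcript, which was higher in dsFactin. Over all tested genes 0.0771% were called higher. Cluster-8110.33261, nearest to ACSL4, a ligase that in mammals prefers long polyunsaturated acids, read 116, 116 and 134 FPKM across dsNC against 280, 218 and 248 FPKM across dsFactin. The groups did not overlap, the means were 122 ± 10.7 and 249 ± 31.1 FPKM (SD, n = 3), 2.04-fold higher, and it rose by 1.02 ± 0.14 on the log2 scale with an adjusted p of 0.0486 in limma. It passed in 5 of 17 alternatives, with adjusted p-values from 0.0113 to 0.216. Cluster-8110.33228 read 217, 208 and 245 FPKM across dsNC against 390, 351 and 416 FPKM across dsFactin, also apart, with a log2 difference of 0.79 ± 0.13 and an adjusted p of 0.0626. Cluster-8110.26931 read 277, 177 and 282 FPKM across dsNC against 321, 495 and 404 FPKM across dsFactin, with a log2 difference of 0.74 ± 0.25 and an adjusted p of 0.185. It is 313 bases long, under the 450 bases from which fragments were recovered, so its level is less certain. Of the 18, 9 differences were positive (50%, against 28.4% of all tested genes) and 9 negative, with a median of 0.01. The median level of the 18 was 20.1 FPKM, against 1.48 FPKM for all tested genes. The list holds 1 ligase outside fatty acid metabolism.

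The 7 fatty acyl-CoA reductases by name gave 0 calls, with 3 positive (42.9%, against 28.4% of all tested genes) and 4 negative differences. The median level of the 7 was 16.9 FPKM, against 1.48 FPKM for all tested genes. Cluster-8110.30753 read 23.2, 26.4 and 22.4 FPKM across dsNC against 69.4, 58.9 and 190 FPKM across dsFactin, with a log2 difference of 1.90 ± 0.43 and an adjusted p of 0.0977 in limma. Its profile resembled that of 3 other transcripts that were singled out after their values were seen. Relative to the dsNC mean, dsFactin replicates 1, 2 and 3 stood at 2.89, 2.46 and 7.93 for this reductase, and at 2.35, 2.54 and 6.59 for the desaturase Cluster-8110.34642. They stood at 2.08, 2.08 and 5.01 for the elongase Cluster-8110.42929, which read 12.2, 14.1 and 11.7 FPKM across dsNC against 26.3, 26.4 and 63.4 FPKM across dsFactin. They stood at 2.51, 2.73 and 6.98 for the 3-oxoacyl-CoA reductase Cluster-8110.36919, which catalyses the second step of the elongation cycle. None of the 4 passed the test, with adjusted p-values of 0.0977, 0.0972, 0.111 and 0.0958.

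**Figure D5:**
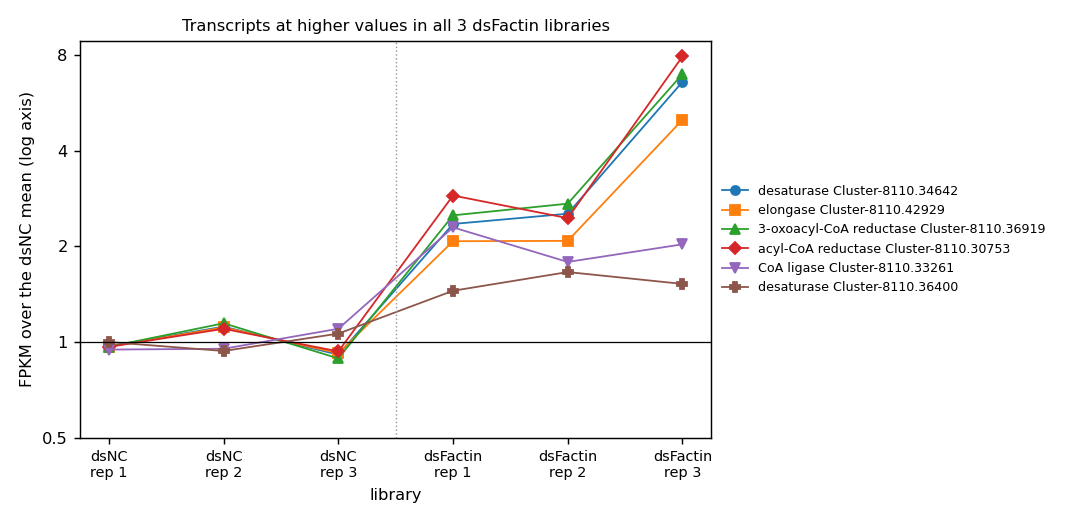
FPKM divided by the dsNC mean (log axis) in each library for 2 desaturases, an elongase, a 3-oxoacyl-CoA reductase, a fatty acyl-CoA reductase and a CoA ligase. Lines only link the values of 1 transcript. For Cluster-8110.34642, Cluster-8110.42929, Cluster-8110.36919 and Cluster-8110.30753 the values lie between 2.08 and 2.89 in dsFactin replicates 1 and 2. In replicate 3 they lie between 5.01 and 7.93. The other lines do not peak in replicate 3. Across dsFactin replicates 1 to 3 the ligase Cluster-8110.33261 stands at 2.30, 1.79 and 2.03. The desaturase Cluster-8110.36400 stands at 1.45, 1.66 and 1.52.

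The neighbouring steps were described with lists of genes by name, and 0 genes of the lists in this and the next paragraph were called. Of 3 genes that supply acetyl-CoA and malonyl-CoA, ATP-citrate synthase (Cluster-8110.35883) had a log2 difference of 0.29 ± 0.10 with an adjusted p of 0.210 in limma, and acetyl-CoA carboxylase (Cluster-8110.36022), which makes malonyl-CoA, -0.27 with an adjusted p of 0.358. The NADP-dependent malic enzyme (Cluster-8110.38713) had -0.33 ± 0.14 with an adjusted p of 0.273. Of 6 partners of the elongation cycle, 4 differences were positive (66.7%, against 28.4% of all tested genes) and 2 negative. The median level of the 6 was 31.0 FPKM, against 1.48 FPKM for all tested genes. At an unadjusted p under 0.05, 1 was higher (16.7%, against 4.53% of all tested genes). The enoyl-CoA reductase Cluster-8110.36443 stood at 0.26 with an adjusted p of 0.453 and the dehydratase Cluster-8110.28679 at 0.14 with 0.678. The list for cytochrome b5 electron supply held 9 genes, of which 3 are other cytochromes (a pair of CYB561 reductases and a succinate dehydrogenase subunit). Of the 6 cytochrome b5 and b5 reductase genes, 3 were positive and 3 negative, with a median of 0.026.

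In mitochondrial beta-oxidation, which breaks fatty acids down, 18 of 29 log2 differences were positive (62.1%, against 28.4% of all tested genes). Every dsFactin value was above every dsNC value for 7 of the 29 (24.1%, against 5.98% of all tested genes), among them the thiolase Cluster-8110.36076 at 0.40 ± 0.11 with an adjusted p of 0.134 in limma. With median-ratio scaling, under which the median of all tested genes was -0.16, 27 of the 29 were positive. With quantile scaling, under which it was 0.01, 21 were. The list median stood 0.37 above that of all tested genes as reported and 0.10 above it with quantile scaling. These 29 had a median level of 30.7 FPKM, against 1.48 FPKM for all tested genes. Over genes with a mean of at least 5 FPKM the median log2 difference was -0.12. Of 31 peroxisomal genes 12 were positive, 22 with median-ratio scaling and 21 with quantile scaling. Of 17 genes for glycerolipids and lipid droplets 13 were positive, and the acyltransferase GPAT1 (Cluster-8110.33905), which opens triglyceride synthesis, read 28.5, 28.5 and 30.2 FPKM across dsNC against 53.1, 41.4 and 46.1 FPKM across dsFactin, with a log2 difference of 0.66 ± 0.13 and an adjusted p of 0.0806. Of 14 fatty acid carriers and SREBP genes 5 were positive. The acyl-CoA-binding protein Cluster-8110.31408, a carrier of activated fatty acids, read 210, 186 and 77.9 FPKM across dsNC against 0.76, 21.6 and 0 FPKM across dsFactin. Its log2 difference of -5.42 ± 1.16 had an adjusted p of 0.0895, or 0.0104 without dsFactin replicate 2. It passed in 2 of 17 alternatives, that one included. The fatty acid-binding proteins differed in direction. Cluster-8110.32024 read 58.4, 57.3 and 51.6 FPKM across dsNC against 38.4, 29.1 and 34.5 FPKM across dsFactin, without overlap, and its log2 difference of -0.71 ± 0.14 had an adjusted p of 0.0822, the lowest on the list. Cluster-8110.34994 was the most abundant transcript on the list, at 5740, 5335 and 6433 FPKM across dsNC against 7719, 8883 and 9826 FPKM across dsFactin, with a log2 difference of 0.59 ± 0.18 and an adjusted p of 0.162.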

How the data were processed

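Per the labels' protocols, a Qiagen kit served for RNA extraction and a SMARTER mRNA kit for the libraries. The authors deposited 1 table of FPKM values, rounded to 2 decimals, with 1 column per library. The sources used here name no aligner, assembler or counter. In the submitters' processing notes the build is mm10, of the mouse, whereas the table lists numbered clusters without coordinates and names them by best protein hits, so no positions are given. The titles of the samples gave the groups.

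The 53182 genes that reached 0.5 FPKM in 3 or more libraries entered the tests as log2(FPKM + 1) with limma 3.58.1 (R 4.3.3; group as the only term, two-sided, intensity trend, Benjamini-Hochberg adjustment). With 3 libraries a group the smallest p of an exact permutation test is 0.1, so none was run. Depth was recovered from the steps between low values, of which 99.567 to 99.821% came out whole within 0.1 of a fragment. A gene of 1000 bases with 3 fragments has 0.234 to 0.275 FPKM at these depths. Fits were tested on simulated data, in which genes with a mean of at least 5 FPKM were changed. Of those raised 2-fold 13% were called, and of those raised 8-fold 73%, with 5 false calls. A gene without a call is therefore not shown to be unchanged. Alternatives covered the pseudocount, filters, scaling, trend, weights, voom on recovered fragments and leaving out each library.

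The rule for naming took every member with an adjusted p under 0.05, and in each family the 4 members of highest mean and the 4 of smallest p. In each pathway list it took the 2 of each kind. Some of these enter the text only through the counts, and other named ones were chosen after their values were seen. Members and lists were chosen with earlier results of these data known. Replicate numbers come from the titles. Same-numbered libraries did not deviate together, with correlations of 0.0994, -0.108 and -0.153 between their deviations from the group means, so no pairing was used. Over all pairs the highest correlation was 0.229, between dsNC replicate 3 and dsFactin replicate 2. Tables and figures were made with Python 3.11.15, pandas 2.3.3 and matplotlib 3.10.9.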

Additional observations from a re-analysis of the deposited data

How the results depend on the processing

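Leaving out 1 library moved the count of called genes from 264 to between 33 and 1297. Other settings gave 114 (pseudocount 0.01), 117 (no filter), 781 (mean from 5 FPKM up), 140 (median-ratio scaling), 174 (no trend), 702 (array weights) and 1261 (voom on recovered fragments of genes of at least 450 bases). With the replicate number as a block, which did not pair the libraries, 17 were called, 1 higher and 16 lower. Of elongases, 2 as reported, 1 passed with pseudocount 0.01, 0 with the block, 5 with voom and 1 to 4 with 1 library left out. Cluster-8110.25053 lost its call with pseudocount 0.01 (adjusted p 0.0610) and with the block (0.0997). Of synthase transcripts, 1 passed with voom and 0 to 2 with 1 library left out. Of desaturases and of glycerolipid genes, 1 each passed at a mean from 5 FPKM up and with voom. Of carriers, 1 passed at a mean from 5 FPKM up, array weights or voom and 0 to 1 with 1 library left out. Of ligases, 0 passed with pseudocount 0.01, no filter, median-ratio, equal-sum or quantile scaling, no trend or the block, 2 at a mean from 5 FPKM up, array weights or voom, and 0 to 2 with 1 library left out. With median-ratio scaling, the log2 ratio of the summed desaturases moved from 0.88 to 1.09 and that of transcripts with a desaturase domain and another name from -0.11 to 0.10. The cause of these shifts was not tested.

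Over 63 named genes, 28 of them members, 13 values changed direction. With quantile scaling Cluster-8110.1260 gave 0.17, with median-ratio scaling Cluster-8110.33872 gave 0.17 and Cluster-8110.30755 0.12, and with array weights Cluster-8110.31798 gave -0.031. The others came from leaving out 1 library, where the log2 difference ran from -0.30 to 1.90 for Cluster-8110.10359, from -0.014 to 0.26 for Cluster-8110.28679 and from -0.40 to 0.17 for Cluster-8110.30755. It ran from -0.049 to 0.091 for Cluster-8110.31798, from -1.66 to 0.36 for Cluster-8110.33579 and from -0.0097 to 0.16 for Cluster-8110.35382. Of these transcripts, Cluster-8110.10359 and Cluster-8110.30755 are fatty acyl-CoA reductases by name.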
